A study of Mus musculus with 6 samples.

Results

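The genes described here are 7 matrix metalloproteinases (Mmp8, Mmp9, Mmp12, Mmp13, Mmp14, Mmp19 and Mmp25), the membrane protease Adam8, and the inhibitors Timp1 and Timp2. They were chosen by name, and all 10 were found among the 23282 genes of the count tables. RNA had been sequenced from mouse blood-forming cells to ask what Mll4 (Kmt2d), a histone H3 lysine 4 methyltransferase, does in the transcriptome of primary and transformed stem and progenitor cells. The tables held 9 libraries in 6 groups. The first transformed groups were bone marrow cells from Mll4f/f mice that carried the leukaemia fusion oncogene MLL-AF9 on a retrovirus. They had received a Cre retrovirus with a Tomato Red marker, labelled Mll4 deleted (2 libraries), or the same vector without Cre, labelled Mll4 intact (2). Those cells were sorted for GFP and Tomato 5 days after infection, so the Cre protein goes with the deletion, and growth was given as 14 days. A separate transformation used MLL4-/- marrow co-infected with an MLL-AF9 virus carrying a neo gene and with FOXO3-IRES-GFP (2 libraries) or the empty vector (EV, 1 library), selected with G418 and sorted for GFP. All 3 of those libraries lacked Mll4 by label, so the FOXO3 comparison has no Mll4-carrying control. The last groups were LSK cells (Lin-, Sca1+, c-Kit+), a marrow fraction with stem cells and early progenitors, from polyIC-treated 2-month-old littermates that carried MxCre. They were MLL4f/f MxCre+ (labelled Mll4 deleted, 1 library) or wild type MxCre+ (1), and about 50 cells were used for each. MxCre is switched on by interferon and acts in other tissues besides blood. Mice were on a mixed 129/Sv and C57BL/6 background.

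Matrix metalloproteinases are zinc enzymes that cut proteins of the extracellular matrix and also cytokines, chemokines and their receptors. Most are secreted as inactive precursors and are activated when a prodomain is cut off by plasmin, by serine proteases or by other metalloproteinases. TIMP proteins bind the active site and block it. In blood, neutrophils store Mmp8 and Mmp9 in granules, macrophages make Mmp12 and Mmp19, and leukaemic blasts of the myeloid lineage are known to release gelatinases. Mmp14 and Mmp25 are membrane-bound, and Adam8 is a membrane protease of myeloid cells that sheds surface proteins such as L-selectin.

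Promoter sequences of the 3 members that were lower in the FOXO3 libraries are shown because FOXO3 is a forkhead factor and because AP-1, the Fos and Jun family, is known to act at metalloproteinase promoters. They come from RefSeq on GRCm38.p6 and run 5′ to 3′ along the gene, from 250 bases before the start to 50 bases after it. Capitals mark each match to the AP-1 motif TGANTCA or the forkhead motif GTAAACA, searched on both strands. The Mmp12 promoter shown is the second of the 2 starts listed for that gene (chr9:7347124-7347423, + strand). The window of the first start (chr9:7344147-7344446, + strand) held no match to either motif. The other windows are those of Mmp13 (chr9:7272264-7272563, + strand) and Adam8 (chr7:139992513-139992812, - strand).
Mmp12: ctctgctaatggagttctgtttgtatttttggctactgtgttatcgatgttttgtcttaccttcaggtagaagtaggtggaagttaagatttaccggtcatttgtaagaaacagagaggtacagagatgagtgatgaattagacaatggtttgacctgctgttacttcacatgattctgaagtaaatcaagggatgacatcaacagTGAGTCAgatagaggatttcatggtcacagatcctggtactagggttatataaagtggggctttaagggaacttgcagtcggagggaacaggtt
Mmp13: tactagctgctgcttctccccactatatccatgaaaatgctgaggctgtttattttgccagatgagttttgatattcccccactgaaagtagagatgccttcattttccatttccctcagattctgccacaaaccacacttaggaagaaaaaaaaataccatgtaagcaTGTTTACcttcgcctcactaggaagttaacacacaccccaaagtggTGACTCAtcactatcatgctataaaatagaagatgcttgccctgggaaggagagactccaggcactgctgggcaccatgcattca
Adam8: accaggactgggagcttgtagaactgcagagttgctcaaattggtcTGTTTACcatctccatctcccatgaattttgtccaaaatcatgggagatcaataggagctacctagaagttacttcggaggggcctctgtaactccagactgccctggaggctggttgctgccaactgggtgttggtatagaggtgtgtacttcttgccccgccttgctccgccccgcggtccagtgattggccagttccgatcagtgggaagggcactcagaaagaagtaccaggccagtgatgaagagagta
In the Mmp12 window an AP-1 match began 44 bases before the start (position -44), and in Mmp13 one began at -35. Mmp13 also held a forkhead match on the opposite strand at -81, and Adam8 held one at -204. No match to either motif overlapped another. Promoters were found for 8 of the 10 members, 9 windows in all. AP-1 matches were in 2 of those 9 windows and in 7.81% of all 32851 promoters, and forkhead matches were in 2 of 9 and in 3.65%. The cyclic AMP response motif TGACGTCA was in 0 of 9 and in 1.79%, and TATAAA was in 3 of 9 and in 13.6%. These matches are letters in a window, and no binding was measured.

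Total counts were 25895041 to 61950773 per library. Levels below are counts divided by the library total and scaled to the usual CPM unit, and a fold change is on the log2 scale. The FOXO3 libraries differed from each other little beyond counting noise (chi-square per degree of freedom 1.97), whereas the libraries labelled Mll4 deleted gave 190.7 and the intact ones 146.0. The labels do not say that libraries of a group came from separate cultures, so p-values measure the spread between these libraries. A second fit therefore summed the FOXO3 pair to 1 library, and its p is given where it changes a call. Kmt2d counts over the whole gene were 95.6 and 73.7 CPM in the libraries labelled Mll4 deleted, against 79.5 and 61.7 CPM in the intact ones. In LSK cells Kmt2d was at 13.9 CPM in the library labelled Mll4 deleted, against 1.88 CPM in wild type. Such counts cannot show the loss of single exons, and the groups are called as labelled. Foxo3 was at 1292 and 1309 CPM in the FOXO3 libraries, against 27.3 CPM with EV. Each of the Mll4-deleted and intact pairs held 1 library with Y-linked and 1 with high Xist expression, so the X-linked Timp1 is balanced between them. Stem and progenitor markers were present in both LSK libraries, with Kit at 102 CPM in the library labelled Mll4 deleted and 46.8 CPM in wild type. Macrophage markers were absent there or nearly so (8 of 10 at 0 in the library labelled Mll4 deleted and 10 of 10 at 0 in wild type).

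**Figure D1:**
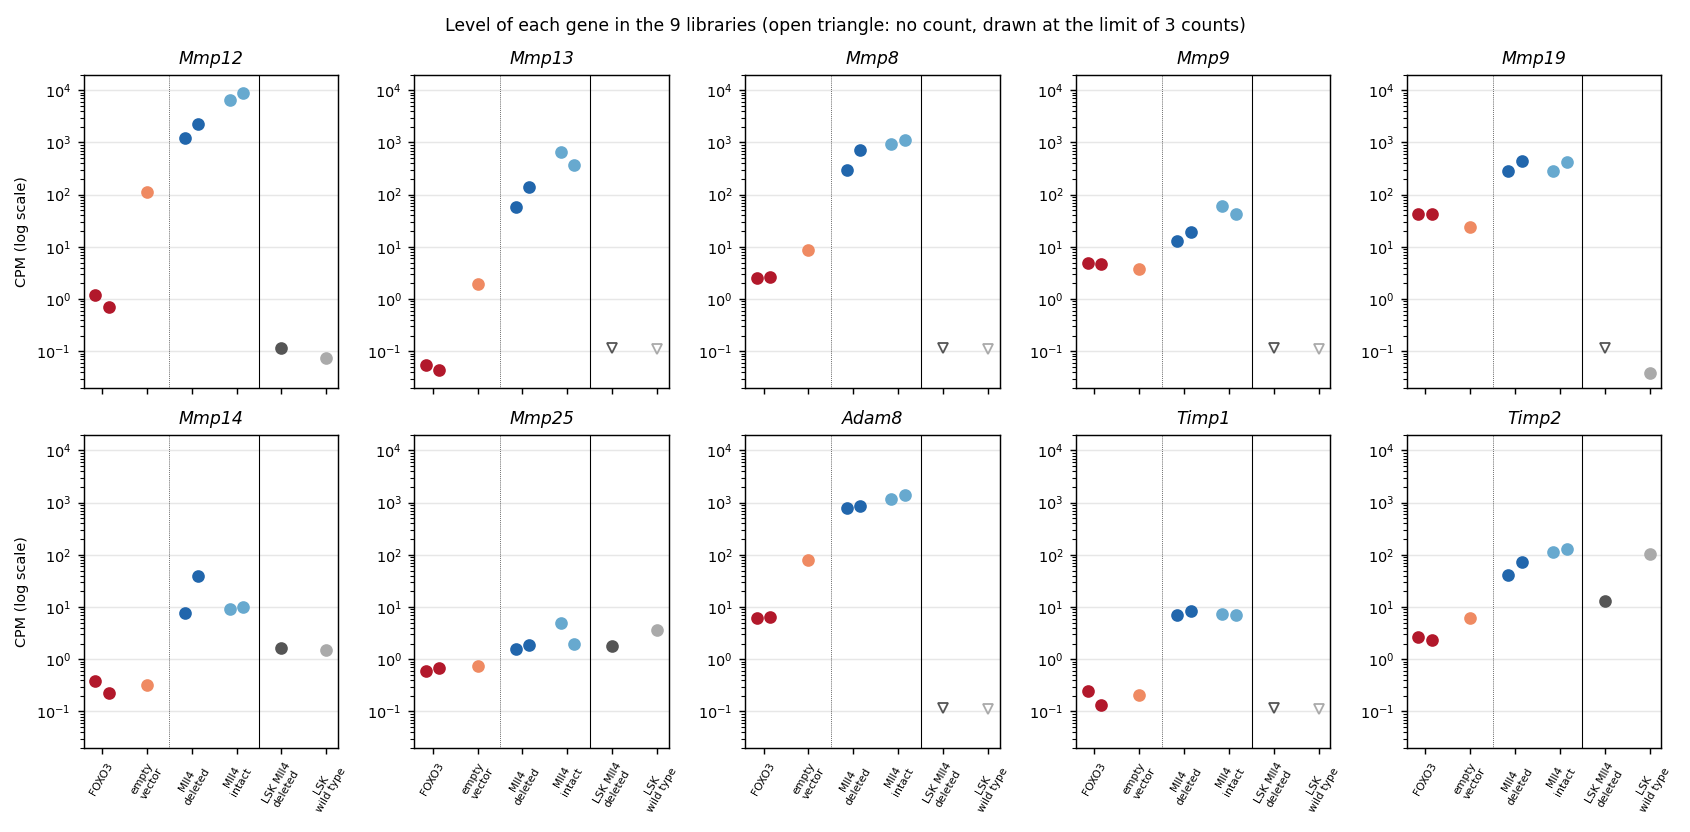
CPM of each of the 10 genes in the 9 libraries, on a log axis, with 1 point per library and the groups along the horizontal axis. Among MLL-AF9 libraries Mmp12 spans 0.691 CPM with FOXO3 to 8757 CPM in an intact one, and open triangles mark LSK libraries with no count, drawn at the limit of 3 counts.

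Loss of Mll4 went with lower levels of 4 proteases and 1 inhibitor in MLL-AF9 cells. Mmp12, Mmp13, Mmp9, Adam8 and Timp2 fell in the libraries labelled Mll4 deleted, with log2 changes from -2.60 to -0.95. That is 5 of 10 members lower, where 6.94% of the 14997 genes tested were lower (edgeR's quasi-likelihood test, Benjamini-Hochberg adjusted p under 0.05), and no member was called higher, where 7.97% of genes were. No member was higher at an unadjusted p under 0.05 or in DESeq2 either. Without the first Mll4-deleted library, Mmp14 was called higher. The median change over the 10 was -1.28, beside -0.03 over all genes tested. With the FOXO3 pair summed, Mmp9 was the 1 member still called, beside 0.854% of genes called lower in that fit. In bulk RNA, fewer cells of a type and less RNA per cell cannot be told apart, here and below.

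Mmp12, the macrophage elastase, had the highest CPM of the 10 in each of these 4 libraries. It was at 1224 and 2220 CPM in the libraries labelled Mll4 deleted, against 6614 and 8757 CPM in the intact libraries. Means were 1722 ± 705 CPM and 7686 ± 1516 CPM (SD, n = 2 each), and the groups did not overlap. Its log2 change was -2.45 ± 0.39 (SE; edgeR adjusted p = 0.0186, and 0.0539 with the FOXO3 pair summed). Mmp13, a collagenase that cuts fibrillar collagens, was at 58.0 and 142 CPM in the libraries labelled Mll4 deleted, against 644 and 364 CPM in the intact ones. The higher Mll4-deleted library stayed below the lower intact one. The log2 change was -2.60 ± 0.46 (edgeR adjusted p = 0.0237, and 0.0704 with the pair summed). Without the second Mll4-deleted library it was -3.38, and without the first -2.02. Without the first intact library it was -2.22, and without the second -2.89. Mmp9, gelatinase B, stood at 13.1 and 19.1 CPM without Mll4, against 61.7 and 42.5 CPM with it. Here too the groups did not overlap, with a log2 change of -1.97 ± 0.23 (edgeR adjusted p = 0.0112, and 0.0484 with the pair summed).

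Mmp8, neutrophil collagenase, did not pass the test. It was at 290 and 725 CPM in the libraries labelled Mll4 deleted, against 929 and 1128 CPM in the intact libraries. The groups were apart, but the Mll4-deleted libraries also lay far from each other, and the log2 change of -1.31 ± 0.43 had an edgeR adjusted p of 0.0939. DESeq2 called it, at an adjusted p of 0.00894. Without the second Mll4-deleted library its log2 change was -2.12 (edgeR adjusted p = 0.0136), and without the first -0.72 (0.0708). Adam8 had 801 and 846 CPM in the libraries labelled Mll4 deleted, against 1180 and 1432 CPM in the intact ones. Both Mll4-deleted values lay under both intact ones, and the log2 change was -0.95 ± 0.17 (edgeR adjusted p = 0.0237, and 0.0954 with the pair summed). Timp2, an inhibitor of many MMPs that also helps Mmp14 to activate pro-Mmp2, was at 40.9 and 73.8 CPM in the Mll4-deleted libraries, against 115 and 132 CPM in the intact ones. It fell with a log2 change of -1.39 ± 0.30 (edgeR adjusted p = 0.0353, and 0.0931 with the pair summed).

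The remaining 4 members did not pass, and 3 of them overlapped between the groups. Mmp19, made by macrophages, was at 287 and 433 CPM in the Mll4-deleted libraries, against 284 and 426 CPM in the intact ones. Those ranges are almost the same, and the log2 change was -0.28 ± 0.30 (edgeR adjusted p = 0.558). Its sign turned to positive under scaling by total counts, at 0.02. Mmp14, the membrane enzyme that activates pro-Mmp2, was at 7.80 and 39.3 CPM in the Mll4-deleted libraries, against 9.31 and 10.0 CPM in the intact ones. The intact libraries were alike and the Mll4-deleted ones were not, so 1 library decides the value. The log2 change was 0.998 ± 0.705 (edgeR adjusted p = 0.371). It became 1.82 without the first Mll4-deleted library (adjusted p = 0.0150) and -0.60 without the second (adjusted p = 0.183). Timp1, which blocks most secreted MMPs, had 7.10 and 8.32 CPM in the Mll4-deleted libraries, against 7.38 and 7.19 CPM in the intact ones. Its log2 change was -0.20 ± 0.25 (edgeR adjusted p = 0.624), and 0.08 under total-count scaling. Mmp25, a membrane enzyme of leukocytes, was low, at 1.58 and 1.86 CPM in the Mll4-deleted libraries, against 4.89 and 1.96 CPM in the intact ones. The edgeR adjusted p of its log2 change of -1.24 ± 0.44 was 0.111, and without the first intact library the change was -0.55. In all, 7 of 10 members did not overlap between these groups, where 59.0% of genes did not.

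**Figure D2:**
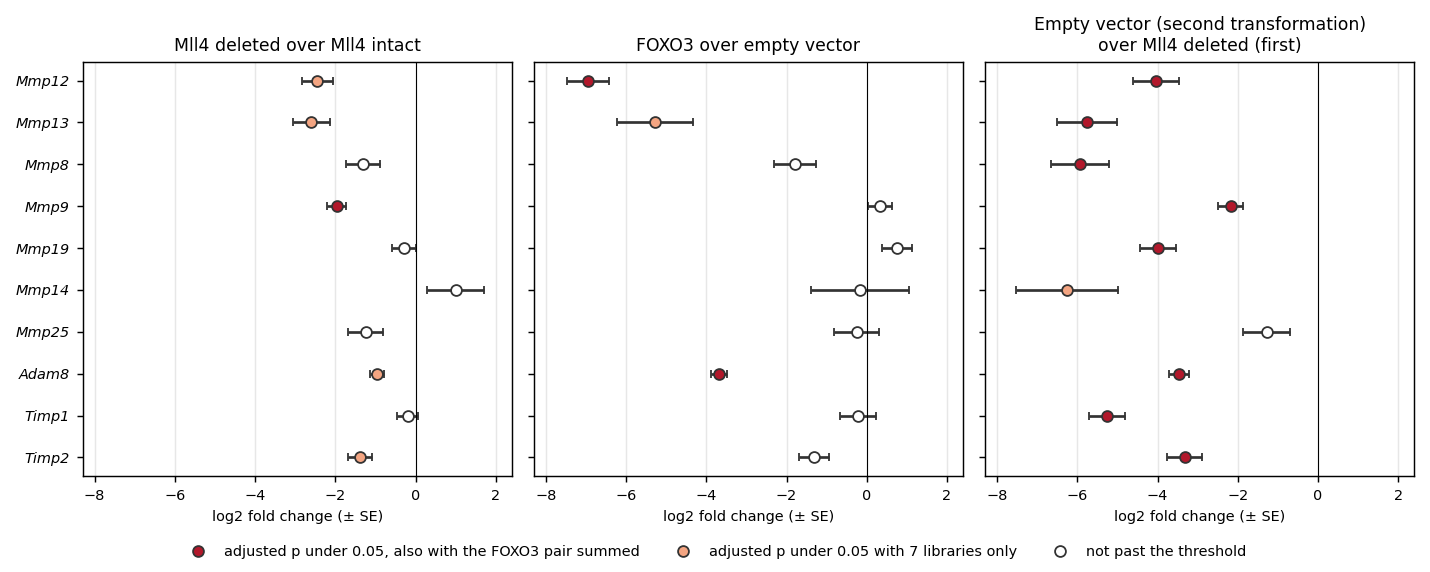
Log2 fold change with its SE for each of the 10 genes in the Mll4-loss, FOXO3 and transformation comparisons, with dark red points where the edgeR adjusted p was under 0.05 also with the FOXO3 pair summed and light ones where it was so in the 7-library fit alone. Coloured points stand at 5, 3 and 9 genes, each of them below 0.

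The summed level of macrophage markers was lower beside these genes, mostly through Gpnmb. The summed level of the 10 macrophage markers was 2777 and 6926 CPM in the libraries labelled Mll4 deleted, against 11095 and 14607 CPM in the intact ones. Of those 10 markers, 2 fell, Itgax and Clec7a, both also with the FOXO3 pair summed, and the other 8 did not pass. Gpnmb alone was at 1102 and 4213 CPM in the libraries labelled Mll4 deleted, against 7419 and 10321 CPM in the intact ones. Csf1r, Adgre1, Mrc1 and Fcgr1 overlapped between the groups, and C1qa was at 1.86 and 3.50 CPM in the Mll4-deleted libraries, against 0.644 and 0.384 CPM in the intact ones. The 6 markers of osteoclasts, another lineage that makes Mmp9, summed to 211 and 422 CPM in the Mll4-deleted libraries, against 782 and 1116 CPM in the intact ones. Atp6v0d2, at 171 and 284 CPM against 632 and 954 CPM, made up most of that sum and was the 1 of 5 tested that fell, or 0 of 5 with the pair summed. Of the 6 megakaryocyte markers, 3 fell, Gp9, Treml1 and Vwf, or 2 with the pair summed. Those 6 summed to 408 and 475 CPM in the Mll4-deleted libraries, against 678 and 515 CPM in the intact ones. The 10 neutrophil granule markers summed to 10775 and 12693 CPM without Mll4, against 11861 and 4816 CPM with it, and Camp rose while Lcn2 and Retnlg fell, of which 1 higher call and 0 lower calls were made with the pair summed. Markers named here were chosen after their values were seen. Mast cell and basophil markers, 5 in all, summed to 11492 and 681 CPM without Mll4, against 4977 and 1967 CPM with it, and none of the 5 was called by edgeR or DESeq2 or had an unadjusted p under 0.05. The part of these markers in the changes of Mmp and Timp genes was not tested. The 10 stroma markers summed to 25.2 and 29.0 CPM in the Mll4-deleted libraries, against 43.5 and 35.9 CPM in the intact ones. Acta2, at 21.1 and 23.9 CPM against 37.6 and 32.2 CPM, made up most of that sum. Of the 5 stroma markers tested 2 fell, or 0 with the FOXO3 pair summed. Cxcl12, a marker of marrow stroma, was at 0 in all 7 MLL-AF9 libraries, whereas Acta2 had counts in each of them.

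**Figure D3:**
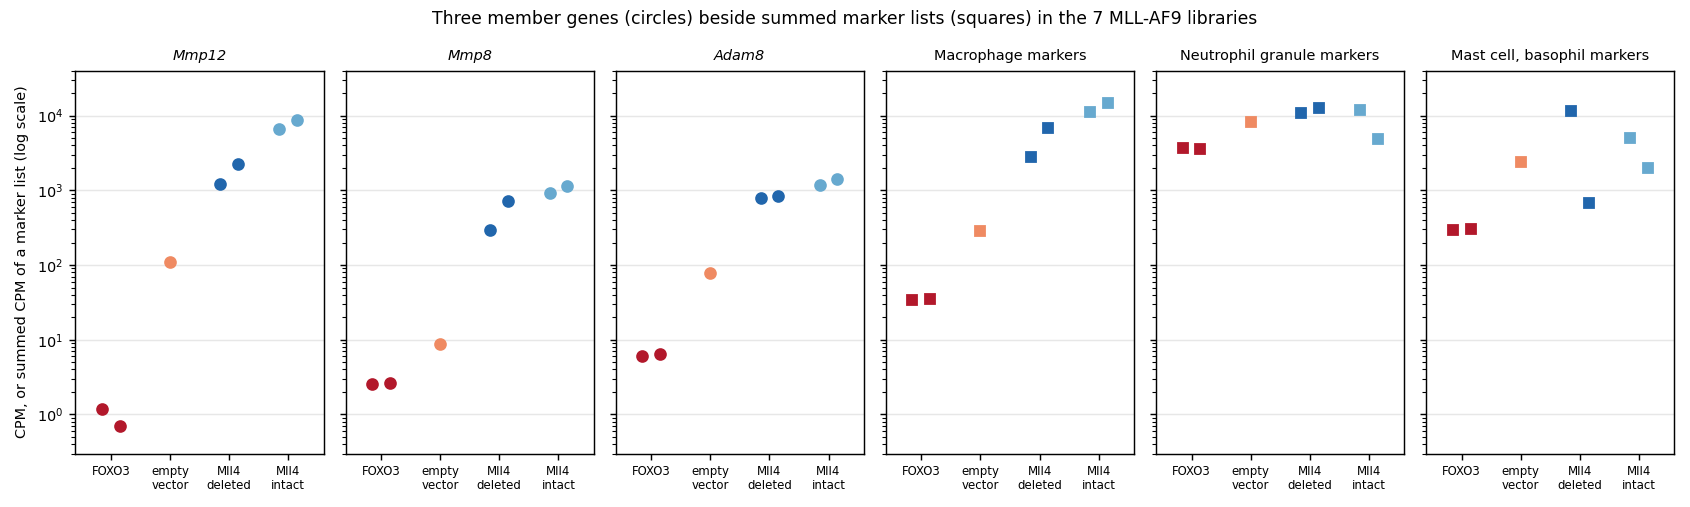
CPM of Mmp12, Mmp8 and Adam8 (circles) and summed CPM of 3 marker lists (squares) in each of the 7 MLL-AF9 libraries, on a log axis. The macrophage list is at 34.2 and 35.3 CPM in the FOXO3 libraries, 285 CPM with EV, 2777 and 6926 CPM in the Mll4-deleted pair and 11095 and 14607 CPM in the intact pair.

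FOXO3 expression in Mll4-null cells went with far lower Mmp12, Mmp13 and Adam8 transcript levels. Those 3 of 10 members fell, beside 4.93% of genes called lower, and no member was called higher, beside 2.20% of genes. None was higher at an unadjusted edgeR p under 0.05 or called higher by DESeq2. The median log2 change of the members was -0.78, beside -0.04 over all genes tested. Mmp12 was at 1.19 and 0.691 CPM in the FOXO3 libraries, against 111 CPM in the EV library. Both FOXO3 values were far below EV, and the log2 change was -6.94 ± 0.52 (edgeR adjusted p = 0.00312, and 0.0297 with the pair summed). As counts, this was 75 over both FOXO3 libraries against 5827 with EV, or 121-fold lower relative to total counts (95% exact binomial interval 96.6 to 154, for counting error only).

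Mmp13 was nearly absent with FOXO3. There were 2 counts in either FOXO3 library, against 102 counts (1.94 CPM) with EV, which is 39.8-fold lower with a counting interval of 15.1 to 149. The log2 change was -5.28 ± 0.95 (edgeR adjusted p = 0.0328). With the pair summed its adjusted p was 0.106, so that call is lost. Adam8 was at 6.12 and 6.44 CPM in the FOXO3 libraries, against 78.3 CPM with EV. Its log2 change was -3.69 ± 0.21 (edgeR adjusted p = 0.00190, and 0.0297 with the pair summed). EV is 1 library, assumed to vary like the other groups, and with the FOXO3 pair summed the spread comes from the Mll4-deleted and intact pairs of the other transformation. In the summed fit 2 members were called lower, beside 0.974% of genes.

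Mmp8 was at 2.56 and 2.65 CPM in the FOXO3 libraries, against 8.74 CPM with EV, and Timp2 was at 2.67 and 2.38 CPM against 6.05 CPM. Both were lower than in the single EV library without passing the test (edgeR adjusted p = 0.113 for Mmp8 and 0.106 for Timp2). DESeq2 called both, at adjusted p of 0.00565 and 0.0150. Mmp9 and Mmp19 had higher values with FOXO3 than with EV. Mmp9 was at 4.96 and 4.75 CPM in the FOXO3 libraries, against 3.73 CPM with EV, a log2 change of 0.33 ± 0.29 (edgeR adjusted p = 0.576). Mmp19 was at 41.8 CPM in both FOXO3 libraries, against 23.9 CPM with EV, a log2 change of 0.76 ± 0.38 (edgeR adjusted p = 0.314). DESeq2 gave Mmp19 an unadjusted p of 0.0445 and an adjusted p of 0.195. Relative to total counts, counting intervals of the log2 ratio were 0.71 to 0.90 for Mmp19 and 0.13 to 0.63 for Mmp9. The last 3 members were under 1 CPM in all 3 libraries. Mmp14 was at 0.378 and 0.223 CPM with FOXO3 and 0.324 CPM with EV, Mmp25 at 0.593 and 0.691 CPM with FOXO3 and 0.743 CPM with EV, and Timp1 at 0.243 and 0.134 CPM with FOXO3 and 0.209 CPM with EV. None of the 3 passed, with edgeR adjusted p of 0.961 for Mmp14, 0.850 for Mmp25 and 0.854 for Timp1. Here 90.6% of genes did not overlap between the 2 libraries and the 1, so a lack of overlap says little.

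Summed levels of marker lists of several lineages were lower beside these genes. Macrophage markers were at a summed 34.2 and 35.3 CPM in the FOXO3 libraries, against 285 CPM with EV. Of the 10, 6 fell, or 2 with the pair summed. Osteoclast markers summed to 8.20 and 7.80 CPM with FOXO3, against 23.4 CPM with EV. Of the 5 tested 1 fell, Atp6v0d2, also with the pair summed. Atp6v0d2 made up most of the EV sum, at 18.0 CPM, against 0.216 and 0.379 CPM with FOXO3. Acp5 had higher values with FOXO3, at 7.82 and 7.22 CPM, against 3.88 CPM with EV. Ctsk was at 0.162 and 0.201 CPM, against 1.50 CPM. Dcstamp and Ocstamp had 2 counts each with EV and 0 with FOXO3. Mast cell and basophil markers summed to 299 and 300 CPM with FOXO3, against 2372 CPM with EV, and 1 of 5 fell, Mcpt8, or 0 with the pair summed. Megakaryocyte markers summed to 36.4 and 37.1 CPM with FOXO3, against 187 CPM with EV. None of those 6 passed edgeR's test, where 3 had an unadjusted p under 0.05 and DESeq2 called 2. Neutrophil granule markers summed to 3637 and 3536 CPM with FOXO3, against 8288 CPM with EV, and 1 of 10 fell, Camp, or 0 with the pair summed. Of those 10, 7 had an unadjusted p under 0.05 and DESeq2 called 7 (list median -1.25). Their part in the lower Mmp12, Mmp13 and Adam8 was not tested.

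The EV cells and the Mll4-deleted cells were both labelled as lacking Mll4, but came from different transformations. All 10 members had lower values in EV cells, and 9 passed the test. Transformation, vectors, selection and sort differed together, and their parts cannot be told apart. Sex was not balanced either. Xist was at 1.01 CPM with EV, against 771 and 2.21 CPM in the Mll4-deleted libraries, so the X-linked Timp1 is not balanced here. The EV library also serves the FOXO3 comparison, and the Mll4-deleted pair serves the Mll4 comparison, so the 3 sets of changes are not independent. The 9 that fell stand beside 12.2% of genes called lower, and none was called higher, beside 9.54% of genes, nor at an unadjusted p under 0.05 or in DESeq2. With the FOXO3 pair summed 8 were called lower, beside 5.90% of genes. The member median was -4.01, beside 0.00 over all genes tested.

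The falls in EV cells were large. Mmp14 was at 0.324 CPM in the EV library, against 7.80 and 39.3 CPM in the Mll4-deleted libraries, a log2 change of -6.25 ± 1.27 (edgeR adjusted p = 0.0253, and 0.0543 with the pair summed). It was -7.04 without the first Mll4-deleted library and -4.66 without the second. Mmp8 was at 8.74 CPM with EV, against 290 and 725 CPM, with a log2 change of -5.94 ± 0.72 (edgeR adjusted p = 0.00851), or -5.13 without the second Mll4-deleted library. Mmp13 was at 1.94 CPM with EV, against 58.0 and 142 CPM, with a log2 change of -5.76 ± 0.75 (edgeR adjusted p = 0.00968), or -4.97 without that library. For each of these the EV value lay far under both Mll4-deleted values. Timp1 was at 0.209 CPM with EV, against 7.10 and 8.32 CPM, and its log2 change was -5.26 ± 0.44 (edgeR adjusted p = 0.00482). Mmp12 was at 111 CPM with EV, against 1224 and 2220 CPM, and its log2 change was -4.04 ± 0.57 (edgeR adjusted p = 0.0113). In EV cells the elastase had 5827 counts, the inhibitor Timp1 11 and the inhibitor Timp2 318.

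Mmp19 was at 23.9 CPM with EV, against 287 and 433 CPM in the Mll4-deleted libraries, a log2 change of -3.99 ± 0.46 (edgeR adjusted p = 0.00794). Adam8 was at 78.3 CPM with EV, against 801 and 846 CPM, a log2 change of -3.47 ± 0.25 (edgeR adjusted p = 0.00364). Both groups of values stood well apart. Timp2 was at 6.05 CPM with EV, against 40.9 and 73.8 CPM (log2 change -3.32 ± 0.43, edgeR adjusted p = 0.00951). Mmp9 was at 3.73 CPM with EV, against 13.1 and 19.1 CPM (log2 change -2.18 ± 0.32, edgeR adjusted p = 0.0119). Mmp25 was the exception, at 0.743 CPM with EV, against 1.58 and 1.86 CPM, with an edgeR adjusted p of 0.161. All 10 macrophage markers fell here too, or 8 with the pair summed, at a summed 285 CPM with EV, against 2777 and 6926 CPM in the Mll4-deleted libraries. Osteoclast markers fell in 4 of 5 tested, with the same count in the summed fit. Of 6 megakaryocyte markers 1 rose and 3 fell, or 0 and 2. Neutrophil granule markers fell in 1 of 10, or 0 with the pair summed. They summed to 8288 CPM with EV, against 10775 and 12693 CPM in the Mll4-deleted libraries. None of 5 mast cell and basophil markers was called by edgeR or DESeq2. Those 5 summed to 2372 CPM with EV, against 11492 and 681 CPM. The part of those markers was not tested.

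The order of the 4 MLL-AF9 groups was shared by 6 members. Mmp8, Mmp12, Mmp13, Mmp25, Adam8 and Timp2 had their highest mean in intact cells, then in Mll4-deleted, EV and FOXO3 cells. This order was also that of 9.56% of the 14997 genes tested. Neighbours in it did not always differ beyond their spread: Mll4-deleted and intact cells did not for Mmp8 and Mmp25, nor FOXO3 and EV cells for Mmp8, Mmp25 and Timp2, nor EV and Mll4-deleted cells for Mmp25. Mmp9 and Mmp19 had their lowest mean in EV cells. Mmp14, Mmp19 and Timp1 had their highest mean CPM in Mll4-deleted cells. None of the 3 passed the test against intact cells, and the fitted change, which uses other scaling, was negative for Mmp19 and Timp1.

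Levels of different genes can be compared after division by transcript length (CPM per kilobase of the longest principal GENCODE M21 transcript). On that scale Mmp12 reached 1834 and 2428 CPM per kilobase in intact cells, which put it at ranks 24 and 17 among the 20028 genes with a length. In Mll4-deleted cells it was at 339 and 616 CPM per kilobase, ranks 215 and 140, and with EV at 30.8 CPM per kilobase, rank 2700. The FOXO3 libraries held 0.329 and 0.191 CPM per kilobase. Mmp8 and Adam8 came next in intact cells, with 383 and 465 CPM per kilobase for Mmp8 and 379 and 459 for Adam8. Timp2, at 31.1 and 35.5 CPM per kilobase in intact cells, exceeded Timp1, at 8.36 and 8.15. Set against Timp2 per length, Mmp12 stood 30.7 and 30.9 times as high in Mll4-deleted cells and 59.0 and 68.4 times as high in intact cells. The same ratio was 0.457 and 0.298 in FOXO3 cells and 18.8 in EV cells, so Mmp12 was below Timp2 in the FOXO3 libraries and above it in the other 5. The 10 genes took 0.00606% and 0.00598% of all counts in FOXO3 cells and 0.0235% in EV cells. Their share was 0.273% and 0.451% in Mll4-deleted cells and 0.985% and 1.23% in intact cells.

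**Figure D4:**
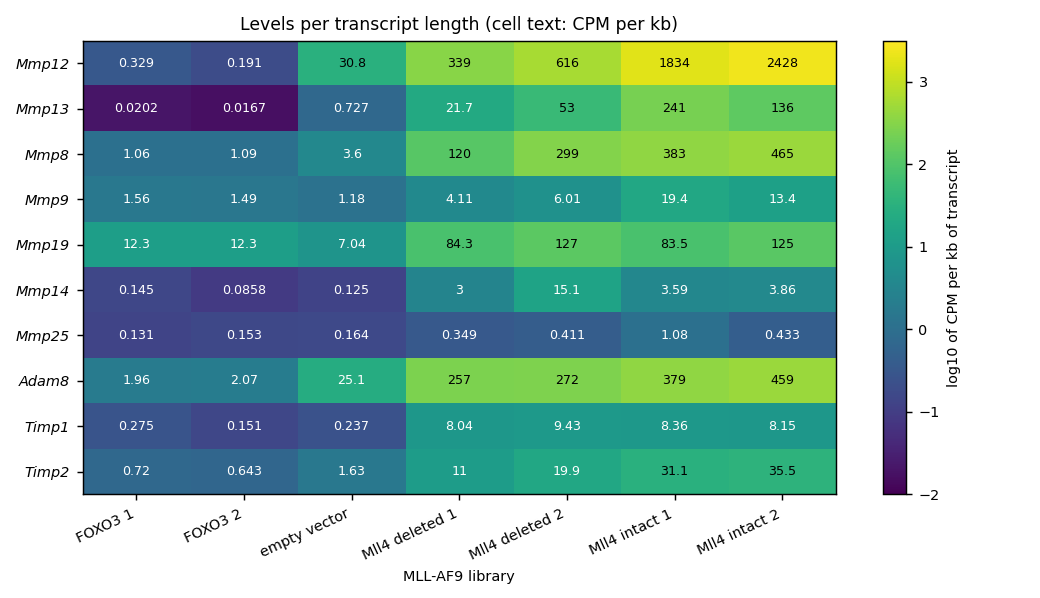
CPM per kilobase of transcript for the 10 genes (rows) in the 7 MLL-AF9 libraries (columns), with the value in each cell and a log colour scale. Mmp12 is the highest of the 10 in both intact libraries, at 1834 and 2428 CPM per kilobase.

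LSK cells held few of these transcripts, and Timp2 was the 1 member with many counts. It was at 12.9 CPM (334 counts) in the Mll4-deleted LSK library as labelled, against 104.5 CPM (2780 counts) in the wild type one. That is 8.10-fold lower, a log2 ratio of -3.02 (95% exact binomial interval -3.19 to -2.85). With 1 library a group there is no replicate check, and 63.0% of the 10174 genes that averaged 1 CPM or more differed by more than 2-fold between these libraries, with 34.9% lower. Mmp25 was at 1.82 CPM (47 counts) in the library labelled Mll4 deleted and 3.57 CPM (95 counts) in wild type, a log2 ratio of -0.98 (-1.51 to -0.46). Mmp14 was at 1.62 CPM (42 counts) in the library labelled Mll4 deleted and 1.50 CPM (40 counts) in wild type, and the interval of its log2 ratio of 0.11 ran from -0.55 to 0.77. Mmp12 had 3 reads there under the Mll4-deleted label and 2 in wild type, and Mmp19 had 0 and 1. Mmp8, Mmp9, Mmp13, Adam8 and Timp1 had no read in both, and a count of 0 allows up to 0.116 CPM in the library labelled Mll4 deleted and 0.113 CPM in wild type. These intervals and limits cover counting error only, and the libraries were amplified by PCR from about 50 cells. LSK and MLL-AF9 libraries were made by different protocols, so their levels are only set side by side: Adam8, at 0 in LSK cells, was above 6 CPM in all 7 MLL-AF9 libraries.

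Other genes of the proteolytic system were taken from lists chosen by function. Among 16 further MMP genes, 10 could be tested for Mll4 loss, and 2 rose and 2 fell (list median -0.61). Mmp17, a membrane MMP, rose at a mean of 1.68 CPM in Mll4-deleted cells, against 0.123 CPM in intact cells (log2 change 3.48 ± 0.39, edgeR adjusted p = 0.0107). Mmp23 rose as well, at 0.494 CPM against 0.0921 CPM (2.10 ± 0.49, edgeR adjusted p = 0.0443). Mmp27 fell, at 2.27 CPM against 6.75 CPM (-1.84 ± 0.37, edgeR adjusted p = 0.0315). Mmp1b, whose reads may be shared with its near copy Mmp1a, fell at 0.135 CPM against 1.27 CPM (-3.55 ± 0.67, edgeR adjusted p = 0.0354). With the FOXO3 pair summed Mmp17 was still called. None of the 8 tested of 9 further ADAM genes passed edgeR's test, where 2 had an unadjusted p under 0.05 and DESeq2 called 1. Of 4 tested of 6 further inhibitors 1 fell, Timp3, the inhibitor that binds to the matrix. It was at a mean of 1.06 CPM in Mll4-deleted cells, against 16.7 CPM in intact cells, a log2 change of -4.23 ± 0.29 (edgeR adjusted p = 0.00730, and 0.0484 with the pair summed).

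Activators of MMPs and the plasminogen system moved both ways with Mll4 loss, with 3 higher and 3 lower of 12 tested of 15. The 3 that rose are serine proteases of neutrophil granules. Prtn3, proteinase 3, averaged 1873 CPM in Mll4-deleted cells, against 160 CPM in intact cells (log2 change 3.26 ± 0.32, edgeR adjusted p = 0.00829). Elane, neutrophil elastase, averaged 2150 CPM against 239 CPM (2.87 ± 0.38, edgeR adjusted p = 0.0133). Ctsg, cathepsin G, averaged 1647 CPM against 399 CPM (1.77 ± 0.18, edgeR adjusted p = 0.00925). These 3 were called in the summed fit too. Plau, urokinase, fell and averaged 80.3 CPM in Mll4-deleted cells, against 144 CPM in intact cells (-1.12 ± 0.13, edgeR adjusted p = 0.0111). The other 2 lower calls, named after their values were seen, were its receptor Plaur and its inhibitor Serpinb2, and none of the 3 was called in the summed fit. Of 14 transcription factors known at MMP promoters, 3 fell: Jund (-1.04 ± 0.10, edgeR adjusted p = 0.00792), Ets2 (-0.74 ± 0.15, 0.0338) and Junb (-0.70 ± 0.16, 0.0403). Jund was the 1 of them called with the pair summed.

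With FOXO3, of the further MMP genes, inhibitors and activators 1 of each list passed. Mmp27 fell (log2 change -2.99 ± 0.57, edgeR adjusted p = 0.0380), Tfpi2, an inhibitor of serine proteases, rose (2.93 ± 0.44, 0.0200), and Plau rose (0.84 ± 0.17, 0.0459). None of these 3 was called with the pair summed. Of the 12 activators and plasminogen genes tested, 6 had an unadjusted p under 0.05 and DESeq2 called 5. For the 4 inhibitors tested those counts were 3 and 2. None of the 8 ADAM genes passed edgeR's test, where 3 had an unadjusted p under 0.05 and DESeq2 called 1. Among the transcription factors Foxo3 itself and Runx2, a factor of bone cells that acts on Mmp13, rose, and 2 members of the AP-1 family fell. Runx2 averaged 130 CPM with FOXO3, against 61.1 CPM with EV (1.04 ± 0.18, edgeR adjusted p = 0.0283, and 0.156 with the pair summed). Fosl2 averaged 2.56 CPM with FOXO3, against 18.4 CPM with EV (-2.89 ± 0.21, edgeR adjusted p = 0.00291, and 0.0360 with the pair summed). Fosl1 averaged 0.123 CPM against 1.56 CPM (-3.69 ± 0.53, edgeR adjusted p = 0.0178, and 0.123 with the pair summed).

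Between the transformations, 7 of the 14 transcription factors fell in EV cells, or 6 with the FOXO3 pair summed, and Runx2, named after its values were seen, rose in the 7-library fit alone. Fosb was at 0.228 CPM with EV, against a mean of 14.5 CPM in Mll4-deleted cells (log2 change -6.05 ± 0.58, edgeR adjusted p = 0.00562). Fosl2 changed by -2.22 ± 0.23 (edgeR adjusted p = 0.00663), Jun by -3.78 ± 0.48 (0.00903) and Jund by -0.95 ± 0.12 (0.00937). Of the 12 activators and plasminogen genes tested 4 fell: Plau (-3.07 ± 0.19, edgeR adjusted p = 0.00300), Serpinb2 (-4.47 ± 0.56, 0.00899), Plaur (-2.01 ± 0.29, 0.0120) and the MMP-docking receptor Cd44 (-1.40 ± 0.23, 0.0162). The summed fit called 4 as well. Mmp2, gelatinase A, fell to 1.50 CPM with EV, against a mean of 17.4 CPM (-3.61 ± 0.77, edgeR adjusted p = 0.0287). Adam9 (-1.41 ± 0.30, edgeR adjusted p = 0.0279) and Adam15 (-0.98 ± 0.21, 0.0287) also fell. None of these 3 was called with the pair summed. Of the 4 further inhibitors tested none passed edgeR's test, where 2 had an unadjusted p under 0.05 and DESeq2 called 0.

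Genes whose log2(CPM + 1) followed a member most closely over the 7 MLL-AF9 libraries were taken from 9285 genes that averaged 10 CPM or more. These correlations are a description: the libraries fall into 4 groups, and any gene that follows the groups scores high. For Mmp12 the nearest were Chil4, Chil3 and Plekho1 (Pearson's r of 0.998 each), the first 2 of them chitinase-like proteins of macrophages. The nearest to Mmp8 were Lgals8, Rhoc and Hip1, and to Mmp9 Osbpl11, Pttg1ip and Fgd6. Mmp13 was followed by Mkrn1, Serpinb2 and Cd52, and Mmp19 by Fcgrt, Lpl and Dab2. For Adam8 they were Pirb, Myadm and Niban2, and for Timp2 Clec4d, Fgr and Atf3. Between 178 and 989 genes per member had r above 0.9. Among the members themselves, r ran from 0.71 between Mmp14 and Mmp25 to 0.997 between Mmp8 and Timp2.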

How the data were processed

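The deposited tables, 1 for each library, list 23282 NCBI gene numbers with raw counts as whole numbers. Tools named in the submitters' processing notes were TopHat2 2.0.11 and Bowtie 0.12.8, with mm9 as genome build. How reads were counted, with which annotation and whether by strand, is not stated there. Names came from RefSeq's GRCm38.p6 table (23185 gene numbers matched, 97 did not, and all stayed in totals). That build was used by itself for promoters.

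CPM divides counts by the library total. Fold changes came from the quasi-likelihood test of edgeR 4.0.16 (R 4.3.3), after filterByExpr and TMM scaling. All 7 MLL-AF9 libraries shared 1 model with 4 group coefficients. P-values were adjusted by Benjamini-Hochberg over all genes tested (threshold 0.05). Errors are SE for log2 changes and SD for CPM. LSK libraries were compared by ratios with 95% exact binomial intervals, and a count of 0 allows 3 counts. The fit was tested on simulated data.

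Members, lists and alternatives were chosen with earlier results of these data known. Every member is named; of each functional list, up to 4 called genes with the smallest p; and the 3 genes most correlated with a member. Of marker lists, single genes were named after their values were seen, as were 2 activators and Runx2 where stated. Alternatives were other scalings and filters, DESeq2 1.42.0, robust estimation, a sex term, a replicate block, the FOXO3 pair summed, only the compared libraries, and each library left out. Results of 1 marker list are not reported here.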

Additional observations from a re-analysis of the deposited data

How the results depend on the processing

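The number of members called for Mll4 loss, 5, went to 1 with the FOXO3 pair summed and to 0 with only the 4 libraries compared, where edgeR called 0 genes in all and 3498 had an unadjusted p under 0.05. Leaving out 1 library at a time changed the number called for Mll4 loss and for FOXO3, both among members and over all genes. Over 18 alternatives, the Mll4-loss call held in 17 for Mmp9, 13 for Adam8, 12 each for Mmp12 and Mmp13, and 11 for Timp2. For FOXO3 the 3 calls became 5 with DESeq2, where genes called lower rose from 739 to 1355 of the 14997 tested. Total-count scaling moved the median of all genes for Mll4 loss from -0.03 to 0.24, and the split of calls from 1196 higher and 1041 lower to 2940 higher and 600 lower. Signs turned for members that did not pass: for Mll4 loss, Mmp14 without Mll4-deleted library 2 (range with 1 library left out -0.60 to 1.82), Mmp19 with total counts (0.020) and without Mll4-deleted library 1 or intact library 2 (range -0.61 to 0.14), and Timp1 with total counts (0.081). For FOXO3 without FOXO3 library 2 they turned for Mmp14 (range -0.55 to 0.19) and Timp1 (range -0.66 to 0.18). A sex term ended the Timp2 call for Mll4 loss (edgeR adjusted p = 0.0640). The causes were not tested. Replicate numbers paired nothing clearly (correlations of 0.181, 0.022 and 0.011). Xist was at 771 CPM in Mll4-deleted library 1, against 1.08 CPM in intact library 1. In library 2 of each it was at 2.21 and 687 CPM, so replicate numbers join libraries of opposite sex. A replicate block over 6 libraries, which therefore matches no animals across these groups, added Mmp8 for Mll4 loss (edgeR adjusted p = 0.0379). Of the single-gene values under alternatives, 405 kept direction and side of the threshold, 10 passed it newly, 35 no longer passed and 7 changed sign. Under a filter of a mean of at least 5 CPM, Mmp25 and Timp1 were not tested. Members under 1 CPM rest on few reads, and the EV and LSK groups on 1 library each.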

Other observations

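Mmp12, Mmp13 and Mmp8 belong to a run of 10 Mmp genes next to each other on chromosome 9, a set chosen after its values were seen. RefSeq's GRCm38.p6 table gave the order Mmp13, Mmp12, Mmp1b, Mmp3, Mmp1a, Mmp10, Mmp8, Mmp27, Mmp20 and Mmp7, of which 7 could be tested. For Mll4 loss, Mmp12, Mmp13, Mmp1b and Mmp27 fell, 4 of 7, and 6 of 7 had a negative log2 change (0 of 7 called with the FOXO3 pair summed), beside 6.94% of all genes tested called lower. For FOXO3, 3 of 7 fell, Mmp12, Mmp13 and Mmp27, or 1 with the pair summed, beside 4.93% of all genes. In EV cells against Mll4-deleted cells, 3 of 7 fell, Mmp8, Mmp12 and Mmp13, or 3 with the pair summed, beside 12.2% of all genes. The genes beside the run did not pass for Mll4 loss: Dync2h1 had an edgeR adjusted p of 0.0837, Dcun1d5 of 0.781 and Tmem123 of 0.610.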
